A study of Saccharomyces cerevisiae with 12 samples.

Results

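The 33 nuclear genes described here encode subunits and bound factors of the last steps of respiration in the yeast Saccharomyces cerevisiae: 9 genes of complex III, 7 of complex IV and 17 of ATP synthase. They were chosen by their known function, as nuclear subunits and bound factors measured by a probe set of their own. The series has 5656 genes with such a probe set. COX5A and COX5B, isoforms of complex IV subunit V, also have a probe set but were listed with the electron entry and cytochrome c genes. All 33 were bright enough to be tested. RNA was hybridised to Affymetrix Yeast Genome S98 arrays from the haploid MATa laboratory strain CEN.PK113-7D, a wild type, with 3 cultures and 3 arrays for each of 4 growth-limiting carbon sources: ethanol, acetate, maltose and glucose. Every culture was an aerobic chemostat, in which medium flows in at a set rate so that all cells grow equally fast, here with 0.1 volumes replaced per hour (the dilution rate), at pH 5 and 30 °C. The study asks how far carbon metabolism is set at the level of transcripts.

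Electrons from the oxidation of carbon sources enter the mitochondrial inner membrane as ubiquinol. Complex III, the cytochrome bc1 complex, passes them to cytochrome c, and complex IV, cytochrome c oxidase, passes them on to oxygen. Both move protons across the membrane, and ATP synthase lets the protons flow back through its membrane part, Fo, to turn the catalytic F1 head that makes ATP. Ethanol and acetate (the C2 compounds) can only be used by respiration, whereas the sugars maltose and glucose can also be fermented, and high glucose is known to repress the respiratory genes of this yeast through loss of the Hap2/3/4/5 activator. Carbon-limited chemostats keep the residual carbon source low, per the study's design. The catalytic core subunits that mitochondrial DNA encodes are not analysed here.

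Marker genes followed the carbon source labels, and the arrays differed in quality. PCK1, the gluconeogenic PEP carboxykinase, had signals of 2870.0 to 4017 on the 6 C2 arrays, against 118 to 225 on the 6 sugar arrays. MAL11, a maltose permease, read 2583 to 4455 on the maltose arrays. It was called higher in maltose than in glucose cultures, and lower in ethanol and in acetate than in glucose cultures (limma, adjusted p under 0.05). The a-cell pheromone gene MFA1 was bright on all arrays, and the alpha-cell gene MF(ALPHA)1 lay at 16.0 to 25.8 on the C2 arrays and up to 232 on a sugar array, glucose array 1. The median signal of maltose array 2 was 22.8, below the 41.8 to 48.5 of the other arrays. The 3'/5' ratio of the actin control, which grows as RNA is shortened, reached 9.27 on ethanol array 2, 14.0 on ethanol array 3, 10.2 on acetate array 2 and 13.1 on acetate array 3, against 3.31 or less on the other 8 arrays. A code letter in the array descriptions, whose meaning the labels do not give, is M for maltose arrays 1 and 2, V for glucose array 2 and P for the other 9. Glucose arrays 1 and 3 had a highest signal of 3732 and 3765, against 7331 or more on the other arrays. The 3 glucose arrays come from older records that carry a separate protocol, so glucose and record age cannot be told apart.

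With the C2 compounds set against the sugars, the 33 genes had a median log2 change of 0.26, against 0.12 for all probe sets tested, and 24 of the 33 lay above 0.12. Of the 33 genes, 9 rose and 2 fell (limma, adjusted p under 0.05), and 22 did not pass. Of all 7176 probe sets tested, 17.1% passed, 11.4% higher and 5.69% lower. The risers were QCR6, QCR8, QCR9 and QCR10 of complex III, COX9 and COX13 of complex IV, and ATP15, ATP17 and TIM11 of ATP synthase. COR1 of complex III and STF2, a factor bound to ATP synthase, fell. An unadjusted p under 0.05 was reached by 18 of the 33 genes and by 2293 of the 7176 probe sets. The whole-culture RNA does not tell fewer cells with a transcript from less of it per cell, and a p-value here reflects how much cultures on the same source vary.

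**Figure D1:**
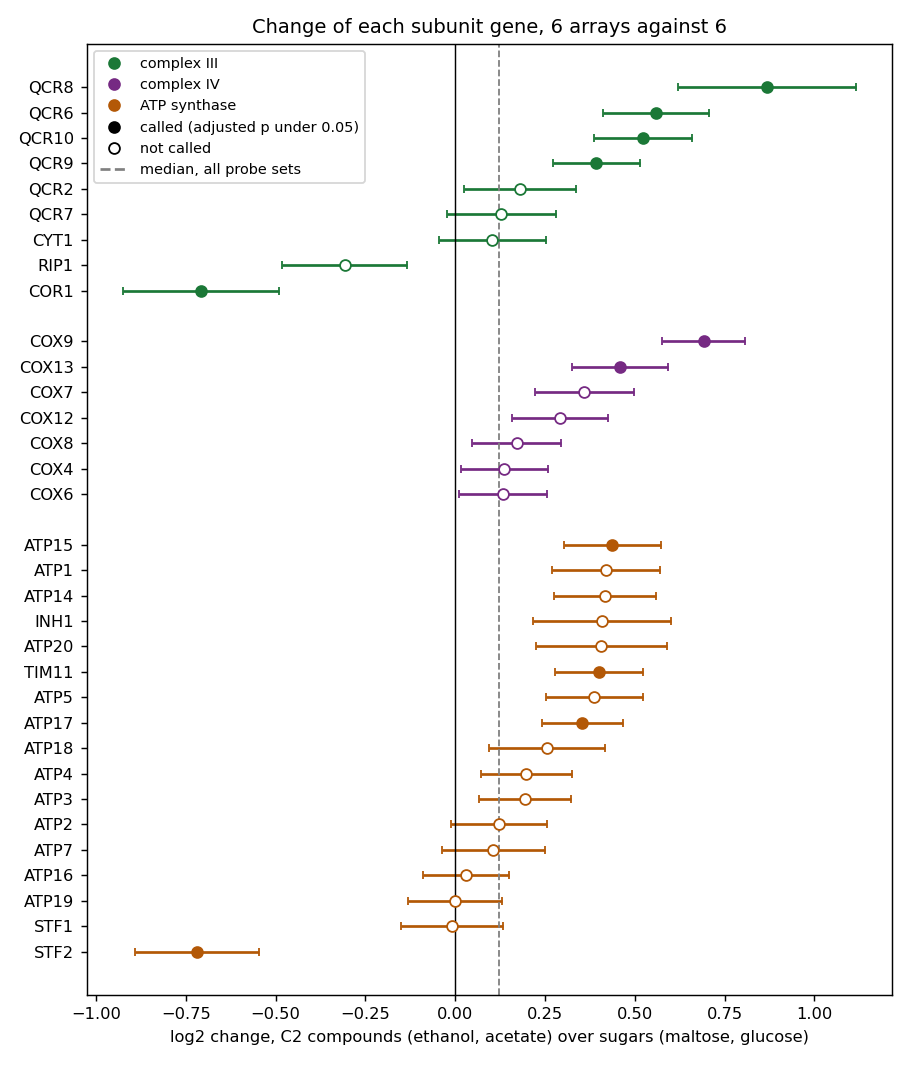
The log2 change of each of the 33 genes (C2 compounds over sugars, 6 arrays each) is drawn as a point with its standard error, by complex, filled where the gene passed the test. Most points lie right of 0, and 24 of the 33 lie right of the dashed median of all probe sets (0.12), while COR1 and STF2 lie near -0.7.

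Set side by side, the complexes had median log2 changes of 0.18 (complex III, from -0.71 to 0.87), 0.29 (complex IV, 0.13 to 0.69) and 0.26 (ATP synthase, -0.72 to 0.44). Calls numbered 5 of 9 genes in complex III, in both directions, 2 of 7 in complex IV, both higher, and 4 of 17 in ATP synthase, 3 higher and 1 lower. Of all probe sets, 17.1% were called, 11.4% higher and 5.69% lower. All 7 genes listed for complex IV had a positive change and lay above the median of all probe sets, as did 6 of 9 genes of complex III and 11 of 17 of ATP synthase. COX5A, a complex IV subunit that is not among the 7, had a negative change. The range of changes was widest in complex III, where COR1 and QCR8, a dim probe set, lay at its ends. With a floor of 50 the QCR8 change was 0.26. The low end in ATP synthase was STF2, a bound factor. Differences between the subunits of a complex were not tested. Over the 33 genes, the highest mean of a carbon source was between 1.11 and 4.06 times the lowest, with a median of 1.37, and 23 genes stayed under 1.5-fold. This range was not computed for all probe sets.

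The number of calls moved with single arrays. It was 3 without ethanol array 2 (11.8% of all probe sets called) or without acetate array 3 (9.82%), and 4 without acetate array 2 (10.4%). It was 5 without ethanol array 3 (10.7%), glucose array 2 (13.2%) or glucose array 3 (11.5%), and 6 without glucose array 1 (12.5%). With glucose array 2 as the only glucose array, 1 gene passed, COX9 (6.66% of all probe sets did). When ethanol and acetate were each reduced to array 1, the C2 arrays with a low 3'/5' ratio, no gene passed (limma; 5 had an unadjusted p under 0.05, and 2.40% of all probe sets passed), and with the ratio as a covariate 1 did, STF2, lower (2.05%). The complex medians were 0.30, 0.19 and 0.22 on the array 1 set, where the median of all probe sets was 0.13, in the order complex III, complex IV and ATP synthase. With the covariate they were 0.27, 0.15 and 0.20, and the median of all probe sets was 0.22, so that complex IV and ATP synthase lay below it. With the code letter as a block 7 genes passed (7.92% of all probe sets), INH1 among them, and QCR8, QCR10, ATP17, TIM11 and STF2 lost their calls. Averaged over the actin and YER148W controls, the log2 ratio was 1.80 on ethanol array 1 and 1.88 on acetate array 1. It was 1.06 to 1.48 on the glucose arrays, and 1.41, 2.06 and 1.39 on maltose arrays 1, 2 and 3. All C2 arrays thus lay above all sugar arrays but maltose array 2, so ratio and carbon source cannot be fully told apart. The part of RNA quality in the calls was not tested.

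Complex III held both the largest rise and one of the falls. QCR6, QCR8, QCR9 and QCR10 rose, COR1 fell, and QCR2, CYT1, QCR7 and RIP1 did not pass. QCR6, the acidic subunit that sits beside cytochrome c1, had signals of 1768, 2597.5 and 2175 in the ethanol cultures and 1937, 2202 and 2405 in the acetate cultures, against 1342, 2126.5 and 1362 in the maltose cultures and 1419, 1349 and 1348 in the glucose cultures. All but maltose array 2 of the sugar arrays lay below the lowest C2 array, and the change was 0.56 ± 0.15 on the log2 scale (SE, 1.47-fold higher, adjusted p = 0.0176). QCR10, a small peripheral subunit, read 996, 1024.5 and 1025 with ethanol and 967, 1090.0 and 1286 with acetate, against 523, 867 and 699.5 with maltose and 865, 732 and 800.4 with glucose. All 6 C2 arrays lay above all 6 sugar arrays, a separation seen for 3 of the 33 genes (QCR10, COX9 and TIM11) and for 5.50% of all probe sets, and the change was 0.52 ± 0.14 on the log2 scale (SE, 1.44-fold higher, adjusted p = 0.0162). QCR9, another small membrane-spanning subunit needed for a stable complex, gave 1831, 2035.5 and 1960.1 with ethanol and 1809, 2009.6 and 1984 with acetate, against 1882, 1748 and 1373 with maltose and 1317, 1353 and 1274 with glucose. The glucose arrays were lowest and maltose array 1 reached into the C2 range, and the change was 0.39 ± 0.12 on the log2 scale (SE, 1.31-fold higher, adjusted p = 0.0348). When single arrays were left out, QCR10 lost its call without acetate array 3 (adjusted p = 0.0545; 0.110 with the code letter as a block), QCR6 without ethanol array 2 or acetate array 3 (adjusted p = 0.0533 and 0.0566), and QCR9 without any of 7 arrays, ethanol 2 and 3, acetate 2 and 3, and glucose 1, 2 and 3 (adjusted p = 0.0520 to 0.0900).

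QCR8, a subunit that joins cytochrome b early in assembly and lies near the ubiquinol site, had the widest range of the 33 genes, on a dim probe set. Its signals were 44.9, 59.1 and 39.6 with ethanol and 92.0, 92.3 and 55.1 with acetate, against 27.1, 13.5 and 19.1 with maltose and 67.4, 53.9 and 52.4 with glucose. The glucose arrays fell inside the C2 range and the maltose arrays lay below all others. The change against both sugars was 0.87 ± 0.25 on the log2 scale (SE, 1.83-fold higher, adjusted p = 0.0255). QCR8 was 2.47-fold higher in ethanol than in maltose cultures, a log2 change of 1.30 ± 0.35 (SE, adjusted p = 0.0389) and 4.06-fold higher in acetate than in maltose cultures, a log2 change of 2.02 ± 0.35 (SE, adjusted p = 0.00181). The ethanol call was lost without any of 8 of the 12 arrays, and 9 of the 14 other alternatives did not give it. The acetate call was kept without any single array. It was missing under 4 of the 14 others, a floor of 50 and the code letter block among them. Both counts include a mean signal of at least 100, where QCR8 was not tested. On the maltose arrays QCR8 lay below the median signals of those arrays (41.8, 22.8 and 47.8), and on maltose array 2 it lay near the floor of 12. On acetate arrays 1 and 2 it lay above the medians of 48.5 and 45.6. Another probe set for QCR8 read 0.1 to 3.4 on all arrays and was not tested. The call against both sugars was lost without ethanol array 2, acetate array 2, glucose array 2 or glucose array 3 (adjusted p = 0.0556 to 0.0755). It was also lost with the code letter as a block (adjusted p = 0.130), on the P arrays alone (adjusted p = 0.0588) and with a floor of 50 (adjusted p = 0.308).

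COR1, a matrix-side core protein related to mitochondrial processing peptidases, had signals of 359, 291 and 374 with ethanol and 611, 286 and 353 with acetate, against 487, 707 and 659 with maltose and 782, 350.2 and 737 with glucose. Acetate array 1 lay among the sugar arrays and glucose array 2 among the C2 arrays, and the change was -0.71 ± 0.22 on the log2 scale (SE, 1.63-fold lower, adjusted p = 0.0352). This call was lost without any of 8 arrays, ethanol 2 and 3, acetate 2 and 3, maltose 2 and 3, and glucose 1 and 3 (adjusted p = 0.0557 to 0.104). QCR2, its partner core protein, averaged 844 ± 191 with ethanol and 800.2 ± 136 with acetate, against 647 ± 151 with maltose and 808 ± 99.5 with glucose (SD, n = 3 each), with a log2 change of 0.18 ± 0.16 (SE, adjusted p = 0.448). CYT1, the cytochrome c1 that hands electrons to cytochrome c, had a log2 change of 0.10 ± 0.15 (SE, adjusted p = 0.669), and QCR7, a small matrix-side subunit, one of 0.13 ± 0.15 (SE, adjusted p = 0.589). RIP1, the Rieske iron-sulfur protein, averaged 1226 ± 463 with ethanol and 1471 ± 412 with acetate, against 1608 ± 106 with maltose and 1615 ± 197.5 with glucose (SD, n = 3 each), a log2 change of -0.31 ± 0.17 (SE, adjusted p = 0.232). A control probe set for RIP1, picked out after its values were seen, read 1023, 460.5 and 452 with ethanol and 1165, 644 and 605 with acetate, against 1202.5, 1179 and 1325 with maltose and 1534, 780 and 1379 with glucose. Its ethanol and acetate arrays 2 and 3 were the lowest of all 12, and these are the 4 arrays with a high 3'/5' ratio.

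**Figure D2:**
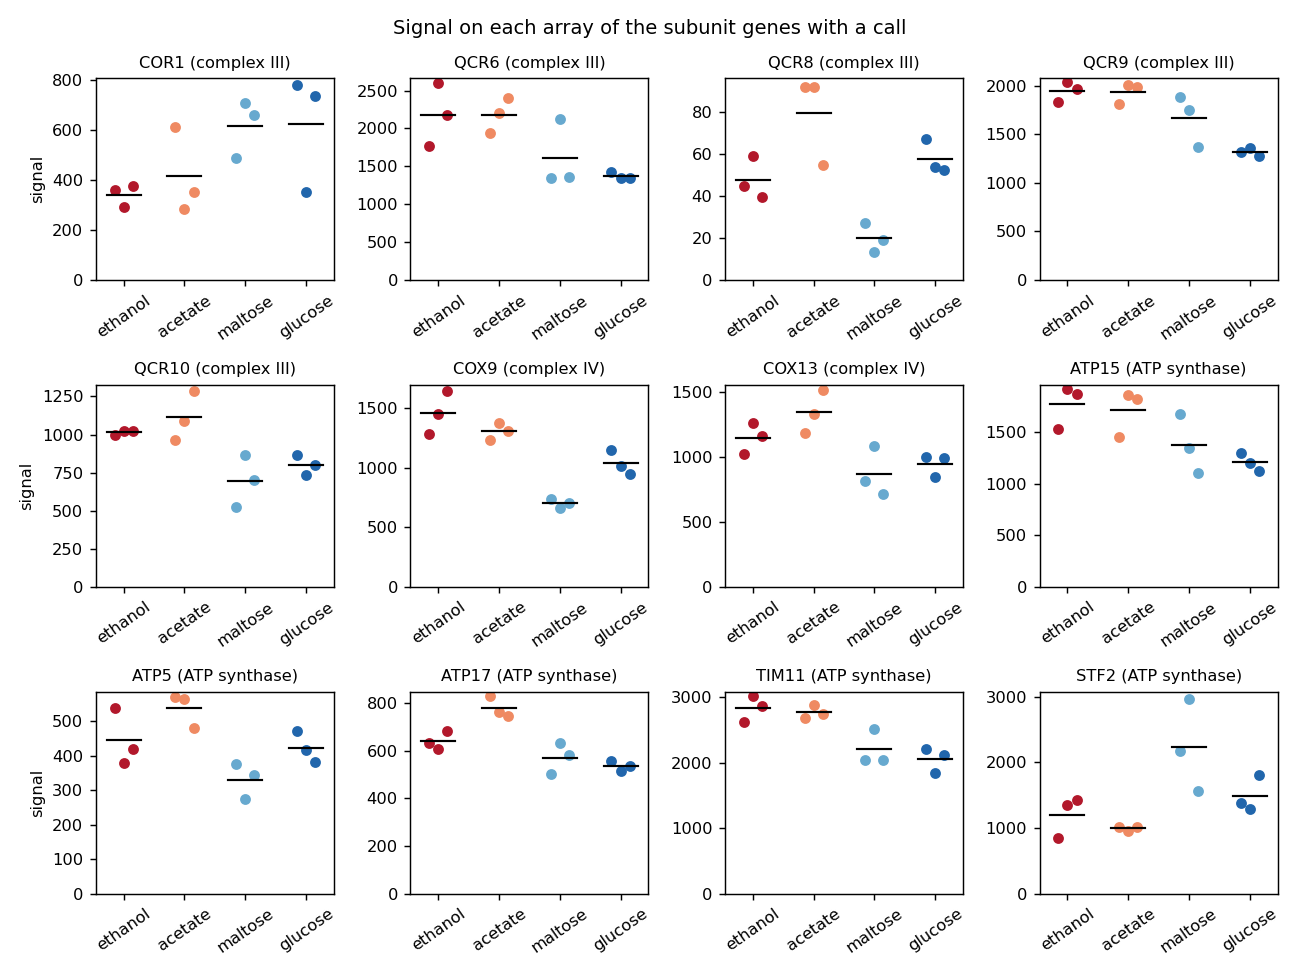
Signal (linear, in the authors' units) on each array for the 12 genes with at least 1 call, with 3 points for each carbon source and a line at their mean. COX9 and QCR8 are lowest with maltose, STF2 is highest there, and most other panels show smaller steps, with C2 and sugar arrays apart also for QCR10 and TIM11.

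Complex IV held the gene with the lowest adjusted p of the 33. COX9, a small membrane-spanning subunit needed for assembly of the enzyme, had signals of 1278, 1449 and 1642 with ethanol and 1235, 1375 and 1306 with acetate, against 740.5, 664 and 701 with maltose and 1144, 1013.5 and 949 with glucose. The groups formed 3 steps, with the C2 arrays highest, glucose between and maltose lowest, and the change was 0.69 ± 0.12 on the log2 scale (SE, 1.62-fold higher, adjusted p = 0.000948). COX9 was called in 24 of 26 alternatives and kept its call without any single array. With array 1 of ethanol and of acetate alone its log2 change was 0.56 (adjusted p = 0.0988), and with the 3'/5' covariate 0.56 (adjusted p = 0.148). COX13, a regulatory subunit on the outer side of the enzyme, read 1022, 1262 and 1158 with ethanol and 1186, 1328 and 1511 with acetate, against 812, 1082 and 716 with maltose and 1002, 847.5 and 988 with glucose. Only maltose array 2 reached the C2 range, and the change was 0.46 ± 0.13 on the log2 scale (SE, 1.37-fold higher, adjusted p = 0.0276). This call was lost without ethanol array 2 or 3, acetate array 2 or 3, maltose array 1 or glucose array 2 (adjusted p = 0.0543 to 0.0817).

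None of the other 5 complex IV genes passed. COX7, a small membrane-spanning subunit, averaged 2441 ± 415 with ethanol and 2717 ± 395 with acetate, against 2098.5 ± 238 with maltose and 1902 ± 184 with glucose (SD, n = 3 each), a log2 change of 0.36 ± 0.14 (SE, adjusted p = 0.0839) that missed the threshold. COX12, which faces the intermembrane space at the cytochrome c side, averaged 3156 ± 313 with ethanol and 3355 ± 297 with acetate, against 2829 ± 498 with maltose and 2508 ± 46.2 with glucose (SD, n = 3 each), a log2 change of 0.29 ± 0.13 (SE, adjusted p = 0.143). COX4, the zinc-binding subunit, COX6 and COX8 had log2 changes of 0.14, 0.13 and 0.17, with adjusted p between 0.355 and 0.477. COX5A, the aerobic isoform of subunit V, was not among the 33 genes and had a log2 change of -0.44 ± 0.16 (SE), adjusted p = 0.0711, the opposite sign to all 7 complex IV members.

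The F1 head of ATP synthase showed 1 call among 5 genes, where 17.1% of all probe sets were called. ATP15, the epsilon subunit of the central stalk, had signals of 1532, 1916 and 1869.9 with ethanol and 1453.5, 1860.4 and 1823 with acetate, against 1675, 1346 and 1105 with maltose and 1297, 1205 and 1128 with glucose. Maltose array 1 lay above the lowest arrays of both C2 compounds, and the change was 0.44 ± 0.14 on the log2 scale (SE, 1.35-fold higher, adjusted p = 0.0370). ATP1, the alpha subunit, averaged 1377 ± 127 with ethanol and 1396 ± 214 with acetate, against 1104 ± 355 with maltose and 996 ± 93.3 with glucose (SD, n = 3 each), a log2 change of 0.42 ± 0.15 (SE, adjusted p = 0.0665) that missed the threshold. ATP2, the catalytic beta subunit, ATP3, the gamma shaft, and ATP16, the delta subunit, had log2 changes of 0.12, 0.19 and 0.03. The ATP15 call was lost without any of 9 arrays, all but ethanol 1, acetate 1 and maltose 1 (adjusted p = 0.0510 to 0.101).

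In the Fo part and stalk, 2 of 9 genes rose and none fell, where 11.4% of all probe sets rose and 5.69% fell. TIM11, subunit e, which with subunit g holds ATP synthase dimers together, had signals of 2622, 3024 and 2863 with ethanol and 2685.5, 2889 and 2749 with acetate, against 2048, 2515 and 2051 with maltose and 2216, 1840.1 and 2127 with glucose. The C2 and sugar arrays did not overlap, and the change was 0.40 ± 0.12 on the log2 scale (SE, 1.32-fold higher, adjusted p = 0.0355). ATP17, the membrane subunit f, read 634, 608 and 683.5 with ethanol and 831, 764 and 747 with acetate, against 502, 631 and 583 with maltose and 557.5, 517 and 538 with glucose. Acetate was highest on all 3 arrays and ethanol overlapped maltose, with a change of 0.35 ± 0.11 on the log2 scale (SE, 1.28-fold higher, adjusted p = 0.0406). ATP5, the OSCP subunit that links the outer stalk to the head, gave 538.5, 378 and 419 with ethanol and 569, 564.5 and 480.1 with acetate, against 375, 274 and 343 with maltose and 470.3, 415 and 382 with glucose. Its log2 change against both sugars, 0.39 ± 0.14 (SE, adjusted p = 0.0601), did not pass. It was higher in acetate than in maltose cultures, by a log2 change of 0.71 ± 0.19 (SE, adjusted p = 0.0288). ATP20, subunit g, had a log2 change of 0.41 ± 0.18 (SE, adjusted p = 0.137), close in size to that of its dimer partner TIM11. ATP14, subunit h of the stalk, had a log2 change of 0.42 ± 0.14 (SE, adjusted p = 0.0551) on its brighter probe set and 0.14 on the other. The stalk subunits ATP4 and ATP7 and the small membrane subunits ATP18 and ATP19 had log2 changes of 0.20, 0.11, 0.26 and -0.0003, with adjusted p between 0.287 and 0.999. The TIM11 call was lost without any of 8 arrays, all but ethanol 1, acetate 1, maltose 2 and maltose 3 (adjusted p = 0.0559 to 0.0930), and the ATP17 call without any of 10, all but maltose 2 and 3 (adjusted p = 0.0526 to 0.0893). ATP17 also missed the threshold with the replicate number as a block (adjusted p = 0.0558). Blocking by code letter gave adjusted p = 0.174 for ATP17 and adjusted p = 0.0706 for TIM11.

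STF2, a small factor reported to steady the bond between ATP synthase and its inhibitor, fell on C2 compounds. Its signals were 851, 1345 and 1419 with ethanol and 1019.7, 959 and 1018 with acetate, against 2167, 2964.5 and 1557 with maltose and 1382, 1286 and 1814 with glucose. Maltose had the highest mean, and the acetate arrays lay below all sugar arrays. The change was -0.72 ± 0.17 on the log2 scale (SE, 1.65-fold lower, adjusted p = 0.0107), and STF2 kept its call without any single array. The call was lost with the code letter as a block (adjusted p = 0.0996), on the P arrays alone (adjusted p = 0.0971) and with glucose array 2 as the only glucose array (adjusted p = 0.110). STF2 fell in ethanol relative to maltose cultures by 0.87 on the log2 scale (adjusted p = 0.0449) and in acetate relative to maltose cultures by 1.11 (adjusted p = 0.00957). The ethanol call was lost without any of 11 arrays, all but maltose 3, and under 9 of the 14 other alternatives, the replicate block among them. The acetate call was lost without maltose array 2, with the code letter as a block, on the P arrays and on the array 1 set. With array 1 of ethanol and of acetate alone its log2 change was -0.94 (adjusted p = 0.246). INH1, the inhibitor that stops ATP synthase from running backwards, averaged 1058 ± 306.5 with ethanol and 1050.3 ± 102 with acetate, against 820.3 ± 318 with maltose and 799 ± 153 with glucose (SD, n = 3 each), a log2 change of 0.41 ± 0.19 (SE, adjusted p = 0.156). STF1, a protein related to INH1, had a change of -0.01 ± 0.14 (SE, adjusted p = 0.977). The inhibitor and the stabilising factors thus gave 1 fall and no rise among 3 genes, where 5.69% of all probe sets fell and 11.4% rose.

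Between single carbon sources, each call involved maltose. The F test across the 4 sources passed for 3 of the 33 genes, QCR8 (adjusted p = 0.00761), COX9 (adjusted p = 0.00245) and STF2 (adjusted p = 0.0330), against 8.19% of all probe sets. Ethanol against maltose gave 3 calls (6.19% of all probe sets), with QCR8 and COX9 higher in ethanol cultures and STF2 lower. Acetate against maltose gave 6 (11.2%), with QCR8, QCR10, COX9, COX13 and ATP5 higher in acetate cultures and STF2 lower. COX9 was higher by a log2 change of 1.05 ± 0.16 (SE, adjusted p = 0.00105) in ethanol cultures and 0.90 ± 0.16 (SE, adjusted p = 0.00270) in acetate cultures, each relative to maltose. In acetate relative to maltose cultures, QCR10 differed by 0.70 ± 0.19 (SE, adjusted p = 0.0321) and COX13 by 0.64 ± 0.19 (SE, adjusted p = 0.0401). The COX13 call was lost without any of 7 of the 12 arrays and under 8 of the 14 other alternatives. For QCR10 these counts were 3 and 8, and for ATP5 they were 4 and 5. These pairs share arrays and are not independent of each other. Ethanol against maltose gave 1 call without any of the ethanol arrays, acetate array 2 or any of the glucose arrays (2.23% to 5.74% of all probe sets). Acetate against maltose gave 3 without acetate array 2 (4.07%) or 3 (3.48%). Of the 3 maltose arrays 2 carry the code letter M, and with the letter as a block or on the P arrays alone each of these pairs gave 1 call. That call was COX9, except on the P arrays for acetate, where it was QCR8.

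Against glucose limma called none of the 33 genes. Of the 33 genes, 8 had an unadjusted p under 0.05 for ethanol, 12 for acetate and 3 for maltose. Of all 7176 probe sets, 1163, 1515 and 831 did, in the same order. Calls were made for 2.55%, 5.50% and 0.209% of all probe sets. Nor did any gene pass between ethanol and acetate (0.0279% of all probe sets called), where none had an unadjusted p under 0.05 (308 of all probe sets did). The 95% interval of the ethanol over acetate change stayed within 2-fold either way for 32 of 33 genes. QCR8 was the exception, with an interval from -1.46 to 0.02 on the log2 scale. For maltose over glucose it stayed within 2-fold for 31 of 33 genes, with QCR8 (-2.33 to -0.85) and STF2 (0.02 to 1.06) reaching further. COX9 had a maltose over glucose log2 change of -0.56 ± 0.16 (SE, adjusted p = 0.244).

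By their mean deviations, both C2 compounds lay above both sugars in all 3 complexes, with acetate highest. Acetate gave the highest mean for 20 of the 33 genes, ethanol for 7, maltose for 4 and glucose for 2. Maltose and glucose each gave the lowest mean for 14 genes, ethanol for 4 and acetate for 1. These counts and the deviations below were not computed for all probe sets. The median log2 change of all probe sets was 0.21 for ethanol and 0.23 for acetate over maltose. Over glucose it was 0.01 for ethanol, 0.03 for acetate and -0.20 for maltose. Taking for each array the median over a complex of the log2 deviation from each gene's 12-array mean, complex IV stood at 0.14 ± 0.08 with ethanol and 0.22 ± 0.06 with acetate, against -0.14 ± 0.17 with maltose and -0.16 ± 0.12 with glucose (SD, n = 3 each). For complex IV all 6 C2 arrays were above all 6 sugar arrays. Complex III stood at 0.07 ± 0.23 with ethanol and 0.14 ± 0.01 with acetate, against -0.22 ± 0.24 with maltose and -0.13 ± 0.12 with glucose, and ethanol array 3, at -0.18, lay among the sugar arrays. ATP synthase stood at 0.06 ± 0.06 with ethanol and 0.17 ± 0.12 with acetate, against -0.09 ± 0.15 with maltose and -0.14 ± 0.17 with glucose, and here the groups overlapped. Ethanol and acetate arrays overlapped in all 3 complexes, as did maltose and glucose arrays. Members of a complex are not replicates, so these medians carry no test.

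**Figure D3:**
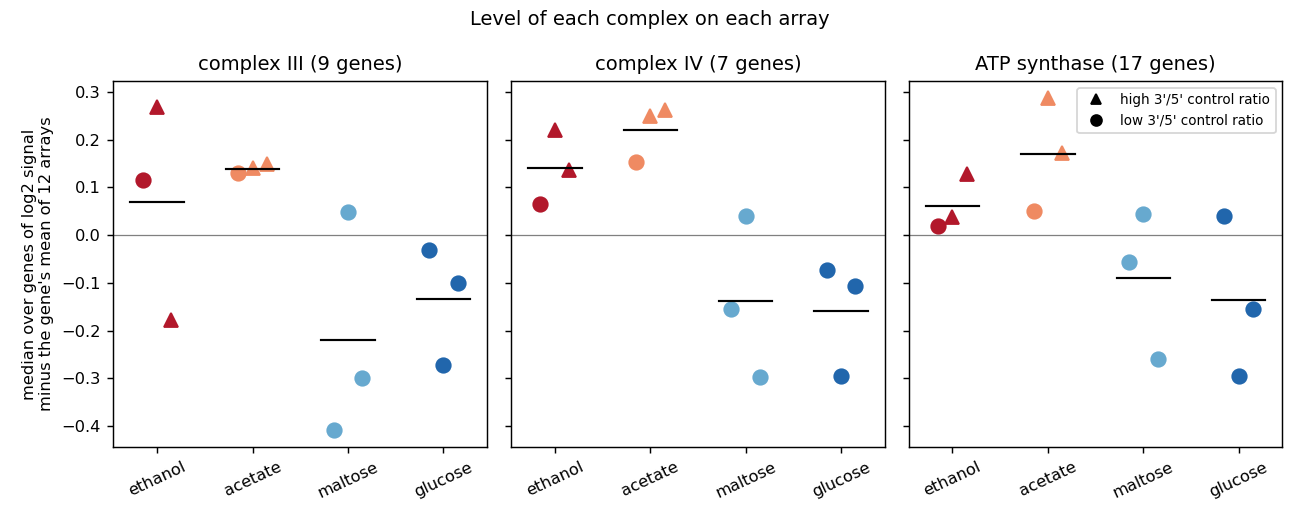
For each complex and array, the median over its genes of the log2 signal minus the gene's mean of the 12 arrays, with a line at the mean of 3 arrays. Triangles mark the 4 arrays with a high 3'/5' control ratio. Acetate lies above 0 in all 3 panels, and in complex IV every C2 array lies above every sugar array.

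Within the C2 cultures, longer genes read lower and shorter genes higher on the arrays with a high 3'/5' ratio. Arrays 2 and 3 of ethanol, set against array 1, had a median log2 difference of -0.15 over the 6 genes with a span of at least 900 nucleotides (CYT1, ATP3, QCR2, COR1, ATP2 and ATP1), all below 0, and of 0.18 over the 27 shorter genes. In acetate the medians were -0.06, with 5 of 6 below 0, and 0.12. Spearman's rho between this difference and the gene span was -0.62 for ethanol and -0.47 for acetate, and -0.28 between span and the change against sugars (33 genes on shared arrays, a description). RIP1 read lower on arrays 2 and 3 than on array 1 by a log2 difference of -0.88 in ethanol and -0.63 in acetate. For COR1 the difference was -0.12 in ethanol and -0.94 in acetate. The part of RNA length in the fall of COR1 was not tested. Gene spans are those of the RefSeq annotation and include introns.

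**Figure D4:**
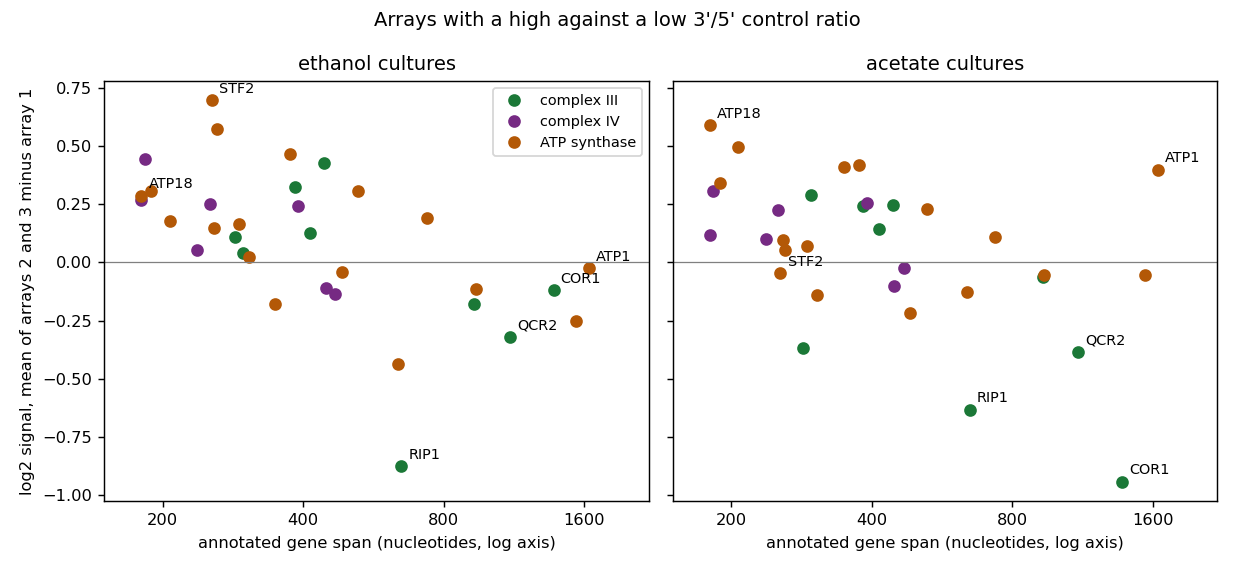
Mean log2 signal of arrays 2 and 3 minus array 1 for each of the 33 genes, against the gene's annotated span on a log axis, in ethanol cultures (left) and acetate cultures (right). Most long genes lie below 0 and most short ones above it, with ATP1 above 0 in acetate cultures.

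A further list of 13 genes held those that feed electrons into complex III, those of cytochrome c, and COX5A and COX5B. Of these 13, 5 rose on C2 compounds (11.4% of all probe sets did) and 1 fell (5.69%). Their median log2 change was 0.28, against 0.12 for all probe sets. NDE2, an external NADH dehydrogenase, had 912 to 1318 in the C2 cultures, against 213 to 392 in the sugar cultures, a log2 change of 1.79 ± 0.15 (SE, adjusted p = 1.05e-06). SDH1, the flavoprotein of succinate dehydrogenase, rose by 1.15 ± 0.13 (adjusted p = 3.04e-05), SDH4 by 0.65 ± 0.13 (adjusted p = 0.00307) and SDH3 by 0.57 ± 0.14 (adjusted p = 0.00996), both membrane anchors of that enzyme. CYC7, the isoform of cytochrome c used at low oxygen, fell: its signals were 15.5, 16.0 and 18.8 with ethanol and 11.9, 10.6 and 6.6 with acetate, against 99.1, 53.5 and 96.9 with maltose and 73.8, 82.7 and 124 with glucose (adjusted p = 1.61e-06). The acetate values are below the floor of 12, so no fold is given. CYC1, the main cytochrome c, had a log2 change of 0.26 ± 0.12 (SE, adjusted p = 0.136). NDE2 and CYC7 also passed on the array 1 set, and NDE2, SDH1 and CYC7 with the 3'/5' covariate.

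The calls among genes that assemble or serve the complexes are given beside the 17.1% of all probe sets called. Of 12 complex III factors only CBP2, an intron-splicing factor for the cytochrome b transcript, rose (log2 0.68 ± 0.17 SE, adjusted p = 0.0141), at signals of 28.7 or less. Of 25 complex IV factors, 24 were tested. COX17, a copper chaperone, rose by 0.60 ± 0.19 (adjusted p = 0.0422), and MSS51, a translational activator of the COX1 transcript, fell by 0.82 ± 0.21 (adjusted p = 0.0162). None of the 11 tested of 12 ATP synthase factors passed. Of 4 tested of 5 ATP/ADP and phosphate carriers, AAC1, a minor ADP/ATP carrier, rose by 0.48 ± 0.16 (adjusted p = 0.0480). Of 5 Hap transcription factor genes, HAP4, the activating and regulated subunit, rose: it had 625 to 870.4 in the C2 cultures, against 476 to 631 in the sugar cultures, a log2 change of 0.52 ± 0.13 (SE, adjusted p = 0.0110). On the array 1 set the HAP4 change was 0.52 (adjusted p = 0.222). None of CBP2, COX17, MSS51, AAC1 and HAP4 passed on the array 1 set or with the covariate.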

How the data were processed

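RNA was measured on 12 arrays, 1 for each chemostat culture. The authors deposited 1 scaled, linear intensity (the signal) for each probe set. They were made with MAS5 for the ethanol, acetate and maltose arrays, per the submitters' processing notes, with no version given. For the glucose arrays the sources used here name no software. The number of arrays and their signal over background set the precision.

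Of 9275 probe sets that are not controls, 6504 had 1 gene name by the platform annotation and the RefSeq gene table, 328 had several and 2443 had none. Signals were brought to an equal 2% trimmed mean, set to at least 12 and log2 transformed. The 7176 probe sets above 12 on at least 3 arrays were fitted with limma 3.58.1 in R 4.3.3, with 1 mean per carbon source over all 12 arrays and an intensity trend. The C2 compounds (ethanol with acetate, averaged) were contrasted with the sugars (maltose with glucose), each source with each other source in 6 pairs, and all 4 at once by a moderated F test. P-values were adjusted by Benjamini-Hochberg within each contrast over all probe sets tested, with a call at an adjusted p under 0.05. A gene with several probe sets was represented by its brightest on average. The pipeline was tested on simulated data.

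The 33 genes and the other lists (electron entry and cytochrome c, carriers, assembly factors of each complex, Hap factors, carbon source and mating type markers) were chosen with earlier results of these data known. Values on all arrays are given for genes called in any comparison, and up to 4 called genes are named for each other list. The alternatives were another normalisation, floor, filter, spread estimate, array weights, blocks by replicate number and by the code letter of the array description, RNA quality, the choice of probe set and leaving out each array. No sequences are shown.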

Additional observations from a re-analysis of the deposited data

How the results depend on the processing

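Each count and median was recomputed under 26 alternatives, 12 of which leave out 1 array, and no called gene turned its sign. The called members for C2 compounds against sugars (11) became 5 with no intensity trend, 20 with array weights, 7 with the code letter as a block, 1 with the 3'/5' covariate, 0 with array 1 of ethanol and of acetate, 1 with glucose array 2 as the glucose array, and 3 to 12 when leaving out 1 array. For the F test across the 4 sources (3) the counts were 8 with quantile normalization, 19 with array weights, 1 with the code letter as a block, 0 on the code letter P arrays, 0 on the array 1 set and 2 to 5 when leaving out 1 array. For ethanol against glucose (0) they were 1 with quantile normalization, a floor of 50, the code letter block or the P arrays, 8 with array weights, and 0 to 1 when leaving out 1 array. For acetate against glucose (0) they were 3 with quantile normalization, 2 with a floor of 50, with no filter or with a mean signal of at least 100, 16 with array weights, 1 with the code letter block or the P arrays, and 0 to 3 when leaving out 1 array. For maltose against glucose (0) they were 4 with array weights and 0 to 1 when leaving out 1 array. For ethanol against maltose (3) they were 1 with a floor of 50, no filter, the code letter block, the P arrays or glucose array 2 alone, 10 with array weights, 0 on the array 1 set, and 1 to 3 when leaving out 1 array. For acetate against maltose (6) they were 3 with no intensity trend or with glucose array 2 alone, 13 with array weights, 1 with the code letter block or the P arrays, 0 on the array 1 set, and 3 to 6 when leaving out 1 array. Ethanol against acetate stayed at 0 throughout. The share of all probe sets called also moved. For C2 compounds against sugars it was 17.1% in the main fit, 15.5% with no intensity trend and 39.4% with array weights. It was 7.92% with the code letter block, 2.05% with the 3'/5' covariate and 9.82% to 21.2% when leaving out 1 array. With array weights it was 47% for the F test, 15.5% and 36.2% for ethanol and acetate against glucose, and 21.4% and 36.2% against maltose. For maltose against glucose it was 6.22% with array weights. With quantile normalization it was 9.35% for the F test, and 3.15% and 6.94% for ethanol and acetate against glucose. Acetate against glucose had 2.38% with a floor of 50, 1.96% with no filter and 8.9% with a mean signal of at least 100. Ethanol against maltose had 3.85% with a floor of 50 and 2.93% with no filter. With the code letter block the F test had 4.17%, and ethanol and acetate against maltose 2.23% and 2.84%. The complex IV median (0.29) was 0.17 with quantile normalization, 0.43 with the code letter block or the P arrays and 0.15 with the 3'/5' covariate. Leaving out 1 array gave medians of 0.13 to 0.28 for complex III, 0.22 to 0.35 for complex IV and 0.20 to 0.33 for ATP synthase. Quantile normalization moved the median of all probe sets to 0.01. QCR8 could not be tested with a mean signal of at least 100. With the replicate block 11 members were called, with ATP5 gained and ATP17 lost. Same-numbered cultures deviated together (r over 0.1) in 6 of 18 pairs, and an array's best match had its own number in 13 of 36 cases, so the numbers were not taken as pairs. Ethanol and acetate arrays of the same number had close 3'/5' ratios, and r was 0.53 for number 1, -0.08 for number 2 and 0.43 for number 3. The main contrast took these arrays as independent cultures, and a pairing of ethanol with acetate alone was not tested. The causes of these shifts were not tested, and the reduced sets also hold fewer arrays. With 3 cultures for each source, the median standard error of a gene's log2 change was 0.14 against both sugars and 0.19 between 2 sources, which limits what small changes can pass.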
